A study of Rattus norvegicus with 10 samples.

Results

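Choline deficiency under fish oil was measured by setting the kidneys of rats fed a choline-deficient diet with menhaden oil against those of rats fed a choline-supplemented diet with the same oil. Its members are the 4 arrays whose labels name these diets, out of 10 arrays in all, and every one of the 29214 probe sets on them was used. All animals were male weanling Wistar rats killed after 6 days, and every array held total kidney RNA of a pool of 3 rats, with 2 pools in each group. The groups are called here the deficient fish oil kidneys (choline-deficient, menhaden oil), the control fish oil kidneys (choline-supplemented, menhaden oil), the necrotic kidneys (choline-deficient, vegetable oil, labelled necrotic), the deficient vegetable oil kidneys (choline-deficient, vegetable oil, without that word) and the control vegetable oil kidneys (choline-supplemented, vegetable oil). By the sample labels the vegetable fat was corn oil, while the feeding protocol adds hydrogenated oils to it, and no source used here says how animals were sorted as necrotic. Pooling hides differences between single animals, so a spread between pools is a spread between averages of 3 rats.

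Choline is needed to make phosphatidylcholine, the main phospholipid of cell membranes, and is oxidised in the kidney to betaine, a methyl donor and an osmolyte. Weanling rats that lack it develop acute tubular necrosis, and the proximal tubule is the segment known to be hit. Menhaden oil supplies eicosapentaenoic and docosahexaenoic acids, which are built into membrane phospholipids, and the title of the series names protection by fish oil. The question addressed here is what choline deficiency left in the kidney transcriptome when the fat was fish oil.

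No probe set passed the test in this comparison. limma called 0 of 29214 probe sets higher and 0 lower in deficient than in control fish oil kidneys at a Benjamini-Hochberg adjusted p under 0.05, which is 0.0% in either direction, and the smallest adjusted p was 0.999971. At an unadjusted p under 0.05 there were 1036 probe sets, or 3.55%, with 364 higher (1.25%) and 672 lower (2.3%). With the same model the contrast of deficient and control vegetable oil kidneys called 330 probe sets (1.13%), and that of necrotic and control vegetable oil kidneys called 6098 (20.9%). The median size of a difference was 0.10 log2 units for choline deficiency under fish oil, 0.17 under vegetable oil and 0.25 for necrotic kidneys. Between the 2 deficient fish oil pools themselves the median size of a difference was 0.13, and between the 2 control fish oil pools it was 0.16. These sizes are not on the same footing, since the diet difference is between means of 2 pools, which averaging makes smaller, and the others are between single pools. With 2 pools a side an exact permutation test of a single gene cannot go below a two-sided p of 0.333, so the model fitted across all probe sets is the test used. Levels below are log2 intensities, differences are deficient minus control on the log2 scale, errors are moderated standard errors from the fit with n = 2 pools a group, and rose or fell is written only of what passed the adjusted threshold.

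The arrays also bound how large a change could have been. The 95% confidence interval of the difference lay wholly inside a 2-fold change in either direction for 27566 of 29214 probe sets, or 94.4%, and the median half-width of the interval was 0.35 log2 units. Fitted differences of 2-fold or more numbered 57 higher and 20 lower, against 240 and 135 for choline deficiency under vegetable oil and 873 and 1145 in necrotic kidneys. Of the fitted ones under fish oil only 4 had a gene name, Havcr1 and Cacng5 on the higher side and Ahsp and Npy on the lower side, and the others are probe sets without a listed gene. Deficient pool 2 correlated with control pool 2 at r = 0.9948 over all probe sets, above its correlation of 0.9934 with deficient pool 1. With control pool 1 it correlated at 0.991. Deficient pool 1 correlated with control pools 1 and 2 at 0.9913 and 0.9932, and the 2 control pools with each other at 0.9906. These coefficients are across probe sets within pairs of arrays, and are given as a description.

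In markers of injured tubules 1 of the 2 deficient pools stood out. Havcr1 encodes kidney injury molecule, a receptor that injured proximal tubule cells put on their surface to take up dying cells. Its level was 9.30 and 7.22 in deficient fish oil pools 1 and 2, against 6.49 and 6.37 in the control fish oil pools. Both deficient pools lay above both controls, and pool 1 lay 2.87 log2 units above the control mean and pool 2 lay 0.79 above it. The fitted difference was 1.83 ± 0.60, a 3.55-fold difference with a 95% interval of 0.45 to 3.20 on the log2 scale, and did not pass (unadjusted p = 0.0149, adjusted p = 0.999971 by limma). In the necrotic kidneys Havcr1 was at 13.24 and 13.53, in the deficient vegetable oil kidneys at 11.82 and 13.11, and in the control vegetable oil kidneys at 6.67 and 6.56. Pool 1 of the deficient fish oil kidneys thus lay above every control pool of either oil and below every necrotic and deficient vegetable oil pool.

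Lcn2, which encodes lipocalin 2, an iron-scavenging protein released by injured tubules and by neutrophils, had the other unadjusted p under 0.05 of the injury list. It was at 10.26 and 9.34 in the deficient fish oil pools, against 8.89 and 9.07 in the control fish oil pools. The groups did not overlap, and pool 1 again held the higher value. The difference was 0.82 ± 0.31 (unadjusted p = 0.0276), while the same contrast rose by 2.50 under vegetable oil and by 3.60 in necrotic kidneys. The neutrophil genes S100a8 and S100a9, subunits of calprotectin, were at 3.70 and 3.88 and at 5.93 and 5.90 in the deficient fish oil pools, against 4.02 and 3.60 and 5.91 and 5.75 in the control fish oil pools. For both the values of the 2 diets overlapped. The S100a8 values are dim, below the lower quartile of these 4 arrays (5.73 to 5.78). Lcn2 is itself 1 of the 17 genes of the neutrophil list. Of these 17, 3 had groups apart on the higher side, Lcn2 included, and 5 on the lower, beside 16.9% and 14.3% of all genes. Which cells gave the Lcn2 values was not tested.

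Over the whole injury list, 26 of 27 genes were measured and 0 passed. A fitted difference above 0 was seen in 22, beside 7657 of all 14506 genes. The list's median difference was 0.11, beside 0.01 over all 14506 genes, and 2 of the 26 had an unadjusted p under 0.05 on the higher side, beside 1.08% of all genes. Deficient pool 1 lay above both control pools in 15 of the 26 genes and deficient pool 2 in 6, beside 31.8% and 32.3% of all genes. The median over the list was 0.22 for pool 1 and -0.01 for pool 2, each set against the control mean. The median of the list thus lay above 0 in pool 1 only. Between the control pools the list's median difference, pool 1 minus pool 2, was -0.10, and between the deficient pools it was 0.23. For comparison, choline deficiency under vegetable oil moved the list's median by 0.96 with 13 genes risen, beside 1.45% of all genes, and necrosis by 1.72 with 23 risen, beside 13.3%.

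**Figure D1:**
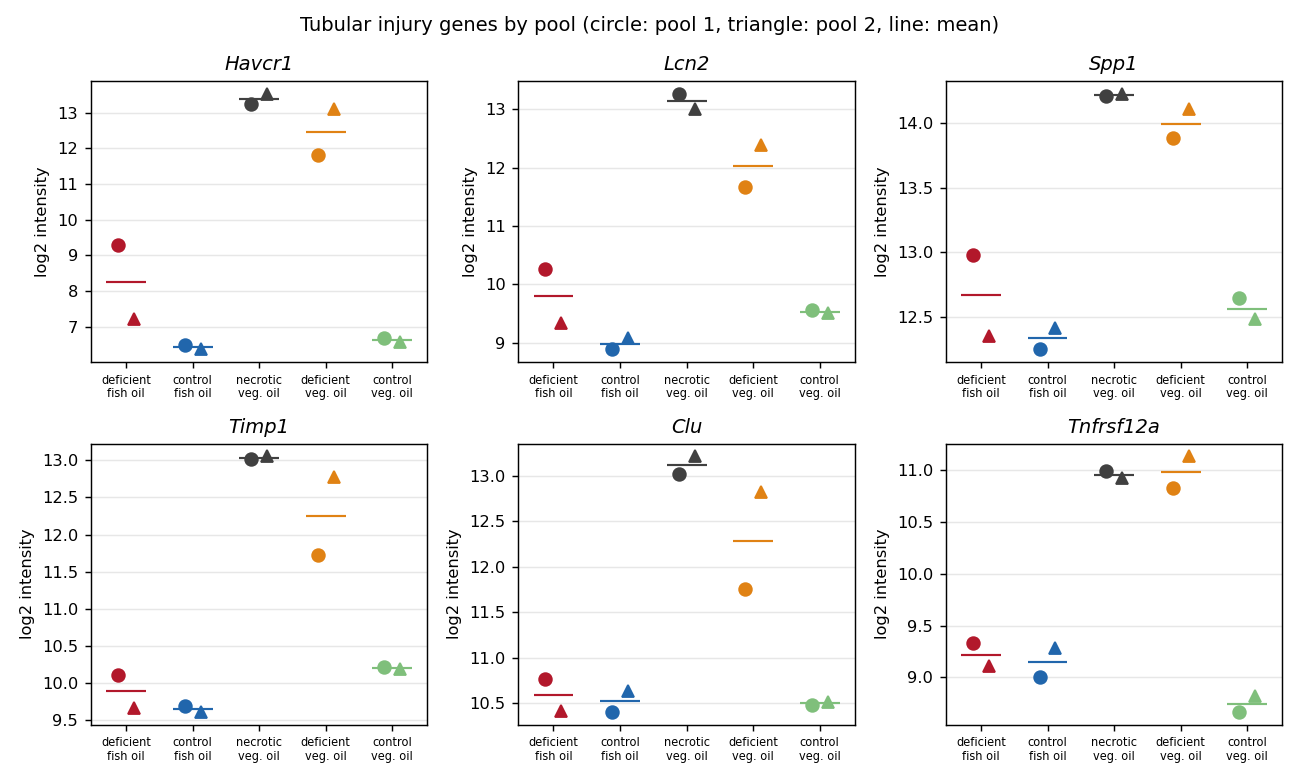
Log2 intensity of 6 tubular injury genes in each pool, for deficient fish oil, control fish oil, necrotic, deficient vegetable oil and control vegetable oil kidneys. Circles are pool 1, triangles pool 2 and lines the mean of the 2 pools. Havcr1 and Lcn2 are higher in deficient fish oil pool 1 than in pool 2 or the controls, and far below the necrotic kidneys.

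Among the secreted products of the list, Spp1 (osteopontin) was at 12.98 and 12.35 in the deficient fish oil pools, against 12.25 and 12.42 in the control fish oil pools. Timp1, an inhibitor of matrix metalloproteinases, was at 10.11 and 9.67 in the deficient pools, against 9.69 and 9.61 in the controls. The chaperone clusterin, Clu, was at 10.77 and 10.41 in the deficient pools, against 10.41 and 10.63 in the controls. In each of these 3 genes pool 1 was above both controls and pool 2 was not. The same held for S100a6, a calcium-binding protein, at 9.37 and 8.43 in the deficient pools, against 8.40 and 8.52 in the controls. Slc7a11, the cystine transporter that feeds glutathione synthesis and a member of other lists than this one, was at 6.82 and 5.30 in the deficient pools, against 5.54 and 5.38 in the controls. Cytoskeletal members differed little. Krt18, a keratin of simple epithelia, was at 10.24 and 9.91 in the deficient pools, against 10.07 and 10.02 in the controls, and the intermediate filament Vim was at 11.84 and 11.88, against 11.80 and 11.88. Krt19, a keratin of dedifferentiating tubules and ducts, had groups apart by a narrow margin, 10.42 and 10.21 in the deficient pools against 10.07 and 10.21 in the controls. The growth factor Areg was the 1 member whose deficient pools lay below both controls, at 6.75 and 6.82 against 6.96 and 7.10. Areg is a ligand of the epidermal growth factor receptor. Tnfrsf12a, the receptor for the cytokine TWEAK, was at 9.33 and 9.11 in the deficient pools, against 9.0 and 9.29 in the controls.

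The deficient pools can also be set against the injury profile of these kidneys, taken from arrays that hold no fish oil. A set of 824 probe sets that rose at least 2-fold in necrotic against control vegetable oil kidneys (median 1.34) was read in each deficient fish oil pool against the control fish oil mean. Its median was 0.085 in pool 1, with 65.7% of the probe sets above 0, and 0.053 in pool 2, with 60.8% above 0. The same median for control fish oil pool 1 minus control pool 2 was -0.027, and over all probe sets the 2 deficient pools had medians of -0.0040 and -0.00455. Both values are a small part of the 1.34 of the necrotic kidneys. That 1.34 comes from the arrays that picked the set, so it is high by selection. A difference of 2-fold or more was reached by 6 of the 824 in pool 1 and by 1 in pool 2. The 1100 probe sets that fell at least 2-fold in necrotic kidneys had medians of -0.041 in pool 1 and 0.004 in pool 2. Their median of -1.47 in the necrotic kidneys is again from the arrays that picked them. For the 130 probe sets raised 4-fold or more the median was 0.168 in pool 1 and 0.025 in pool 2. With the set taken from deficient vegetable oil kidneys, 164 probe sets, it was 0.146 in pool 1 and 0.00233 in pool 2. Against the control vegetable oil pools instead, the medians of the 824 were 0.013 in pool 1 and -0.034 in pool 2, beside -0.103 and -0.083 for control fish oil pools 1 and 2 set against the same vegetable oil pools. The set was thus lower in both control fish oil pools than in the control vegetable oil kidneys, and both deficient fish oil pools lay above both control fish oil pools on that scale. On the same scale the set raised 4-fold was at 0.0817 and -0.0687 in deficient pools 1 and 2, beside -0.019 and -0.101 in the control fish oil pools.

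**Figure D2:**
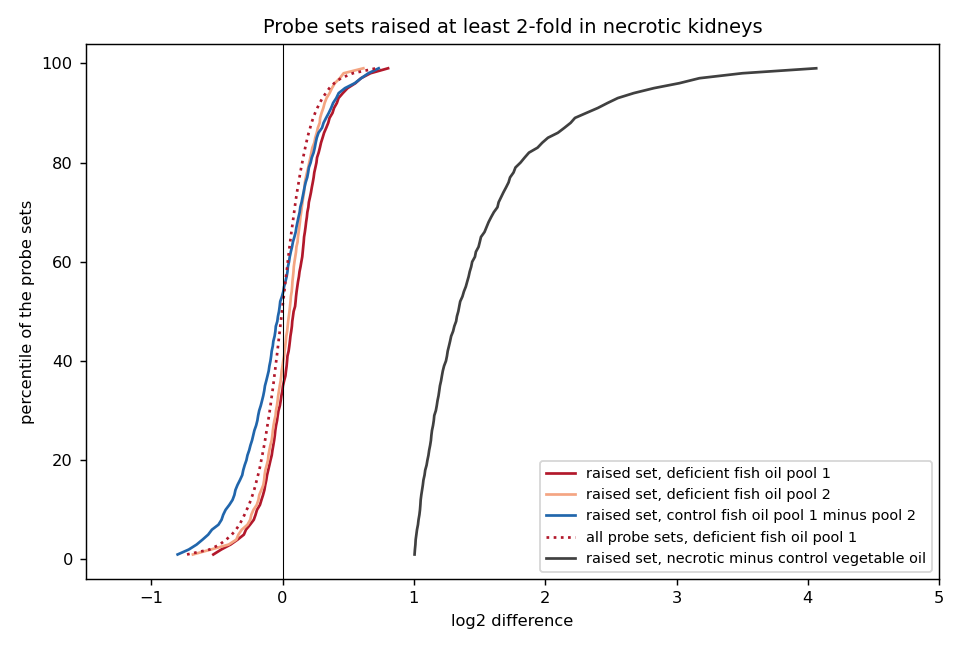
Percentiles of the log2 difference over the 824 probe sets raised at least 2-fold in necrotic kidneys, for deficient fish oil pool 1 and pool 2 against the control fish oil mean, for control fish oil pool 1 minus pool 2, and for necrotic minus control vegetable oil kidneys. The dotted line gives all probe sets in deficient fish oil pool 1. Both deficient fish oil curves lie close to 0, with medians of 0.085 and 0.053. The necrotic curve, from the arrays that picked the set, has a median of 1.34.

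Genes that fell in necrotic kidneys were close to their control level under fish oil. Slc34a1, which takes phosphate back from the urine at the proximal brush border, was at 13.84 and 13.88 in the deficient fish oil pools, against 13.86 and 13.86 in the control fish oil pools. In the necrotic kidneys it was at 10.58 and 10.43, against 14.00 and 14.03 in the control vegetable oil kidneys. Of 55 proximal tubule genes 0 passed under fish oil and 26 had a fitted difference above 0, with a median of -0.0013. Of the 55 intervals 52 lay inside 2-fold, beside 14261 of all 14506 genes. In necrotic kidneys 46 of the 55 fell, beside 14.8% of all genes, with a median of -1.57. Transcripts of whole kidney cannot tell fewer cells of a type from less RNA per cell, here and in what follows.

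The difference between the 2 choline effects, fish oil minus necrotic, was tested directly. The necrotic pools carry an outcome in their label and the fish oil pools carry none, so the 2 sides may differ in more than oil. The difference passed for 42 of the 55 proximal tubule genes on the higher side, beside 7.59% of all genes. For Slc34a1 that difference was 3.51 (adjusted p = 5.1e-05 by limma). The brush border protease Mep1a gave 3.52 and Miox, the enzyme that opens the ring of inositol, gave 4.23. Miox was at 13.23 and 13.28 in the deficient fish oil pools, against 13.23 and 13.28 in the control fish oil pools, so the groups shared their values to the second decimal. Over all probe sets this test called 2548, or 8.72%, with 1431 higher (4.9%) and 1117 lower (3.82%). With each array centred on its median instead, it called 1670 higher and 818 lower. Leaving out 1 array lowered the count to between 955 and 1847, with 955 and 1022 without control vegetable oil pools 2 and 1, 1147 and 1246 without deficient fish oil pools 2 and 1, and 1472 without control fish oil pool 2.

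Further down the nephron the pattern was similar. Umod, the uromodulin made by the thick ascending limb, was at 13.51 and 13.64 in the deficient fish oil pools, against 13.38 and 13.63 in the control fish oil pools. Egf, the epidermal growth factor precursor of the distal tubule, was at 12.42 and 12.56 in the deficient pools, against 12.23 and 12.51 in the controls. Their fish oil minus necrotic differences were 3.36 and 5.05, and both passed. All 13 thick ascending limb genes had a fitted difference above 0, with a median of 0.13, and 5 of them had groups apart on the higher side, beside 16.9% of all genes. The smallest p of the list belonged to Slc12a1, the loop diuretic-sensitive cotransporter, which was at 12.86 and 12.94 in the deficient pools, against 12.59 and 12.80 in the controls. The 14 distal convoluted and connecting tubule genes had a median of 0.15 and the 26 collecting duct genes one of 0.07. Foxi1, the transcription factor of intercalated cells, had the smallest p of the collecting duct list, at 11.15 and 11.12 in the deficient pools, against 10.77 and 10.77 in the controls (0.37 ± 0.12, unadjusted p = 0.0143). Podocyte genes lay above 0 in 11 of 11, with a median of 0.15, and endothelial genes in 17 of 19, with a median of 0.16. Of all 14506 genes 7657 lay above 0. Control pool 1 minus pool 2 had medians of -0.12 in thick ascending limb and -0.10 in distal convoluted and connecting tubule genes. It was 0.01 in collecting duct, -0.10 in podocyte and -0.07 in endothelial genes. Esam, an endothelial junction protein, was at 10.72 and 10.62 in the deficient pools, against 10.36 and 10.34 in the controls. None of these genes passed, and in the podocyte list the median was 0.03 for pool 1 and 0.27 for pool 2.

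Genes that handle choline gave list medians near 0. Over 33 genes of choline uptake and phosphatidylcholine synthesis 16 had a fitted difference above 0, and the median was -0.00295. Of the 33 intervals 32 lay inside 2-fold, beside 14261 of all 14506 genes. Slc22a2, the organic cation transporter of the basolateral proximal tubule, which carries choline, was at 12.56 and 12.80 in the deficient fish oil pools, against 12.43 and 12.45 in the controls. The choline transporter-like protein Slc44a1 was at 11.28 and 11.34 in the deficient pools, against 11.02 and 11.17 in the controls. Chka, the kinase that traps choline as phosphocholine, was at 9.31 and 9.31 in the deficient pools, against 8.95 and 9.18 in the controls. In these 3 genes both deficient pools were above both controls, by differences of 0.24, 0.21 and 0.25. The other way round, Pcyt1a, the rate-limiting enzyme of phosphatidylcholine synthesis, was at 8.91 and 8.99 in the deficient pools, against 9.10 and 9.28 in the controls. Counts of groups apart were 10 higher and 3 lower in this list of 33, beside 16.9% and 14.3% of all genes. The smallest p of the list belonged to Slc5a7, the high-affinity choline transporter of cholinergic nerves, whose levels of 4.90 and 4.38 in the deficient pools, against 5.22 and 5.40 in the controls, lie low on these arrays.

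In choline oxidation, the methionine cycle and one-carbon metabolism, 20 of 37 genes were above 0 and the median was 0.01. Chdh, the mitochondrial dehydrogenase that starts the oxidation of choline to betaine, was at 11.17 and 11.11 in the deficient fish oil pools, against 11.46 and 10.78 in the controls. Both deficient values fell inside the range of the controls. Bhmt, which passes a methyl group of betaine to homocysteine, was at 12.06 and 11.72 in the deficient pools, against 12.11 and 11.41 in the controls. Its paralogue Bhmt2 was at 11.49 and 11.69, against 11.85 and 11.64. The smallest p was that of Mthfd2, a mitochondrial folate enzyme, at 8.0 and 7.97 in the deficient pools, against 8.55 and 8.44 in the controls (-0.51 ± 0.19, unadjusted p = 0.0274). In this list the control pools spread further than the deficient ones in Chdh, Mat2a and Shmt1: the methionine adenosyltransferase Mat2a was at 12.59 and 12.64 in the deficient pools, against 12.91 and 12.27 in the controls.

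Lipid pathways gave medians close to 0 in the deficient against the control fish oil kidneys. They were -0.0015 for PPAR alpha targets and fatty acid oxidation over 47 genes, -0.00745 for fatty acid synthesis and desaturation over 31, -0.00135 for cholesterol synthesis and uptake over 25, and 0.00978 for lipid droplet and triglyceride handling over 22. Pdk4, the kinase that shuts off pyruvate dehydrogenase in fasting, was at 11.72 and 11.64 in the deficient pools, against 11.18 and 11.33 in the controls. Scd2, a stearoyl-CoA desaturase, was at 10.98 and 10.50 in the deficient pools, against 10.40 and 10.15 in the controls. Acacb, the acetyl-CoA carboxylase at the mitochondrial surface, was at 8.37 and 8.44, against 7.83 and 8.22. These 3 had unadjusted p values of 0.0428, 0.0255 and 0.0251 by limma, with both deficient pools above both controls. Groups were apart in 8 higher and 7 lower of the 47 PPAR alpha and oxidation genes. Among the 31 of fatty acid synthesis they were apart in 4 higher and 4 lower, beside 16.9% and 14.3% of all genes. The 43 genes of the respiratory chain and citrate cycle had a median of -0.02. All 43 intervals lay inside 2-fold, beside 14261 of all 14506 genes.

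NRF2 targets and metallothioneins, the genes of the antioxidant response, had fitted differences mostly below 0. Only 6 of 37 were above 0, beside 7657 of all 14506 genes, and the median was -0.10. In 15 both deficient pools were below both controls, beside 14.3% of all genes. Nqo1, a quinone reductase and standard NRF2 target, was at 10.57 and 10.90 in the deficient fish oil pools, against 11.53 and 11.12 in the controls. Abcc2, an apical export pump for conjugates, was at 11.79 and 12.05 in the deficient pools, against 12.24 and 12.37 in the controls (-0.38 ± 0.14, unadjusted p = 0.026). Ugt2b7, a glucuronosyltransferase with close paralogues and 1 of the genes of smallest p on the lower side, was at 10.63 and 10.74 in the deficient pools, against 11.52 and 11.23 in the controls. None of the 37 passed. The level of this list's median gene was 12.01 and 12.05 in the deficient pools and 12.24 and 12.27 in the control fish oil pools, against 10.91 and 10.93 in the control vegetable oil pools. All 4 fish oil pools were therefore above the vegetable oil pools in that median. Hmox1, the haem-degrading enzyme, did not follow the group: it was at 9.63 and 8.34 in the deficient pools, against 8.47 and 9.64 in the controls, so each diet had 1 high and 1 low pool.

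**Figure D3:**
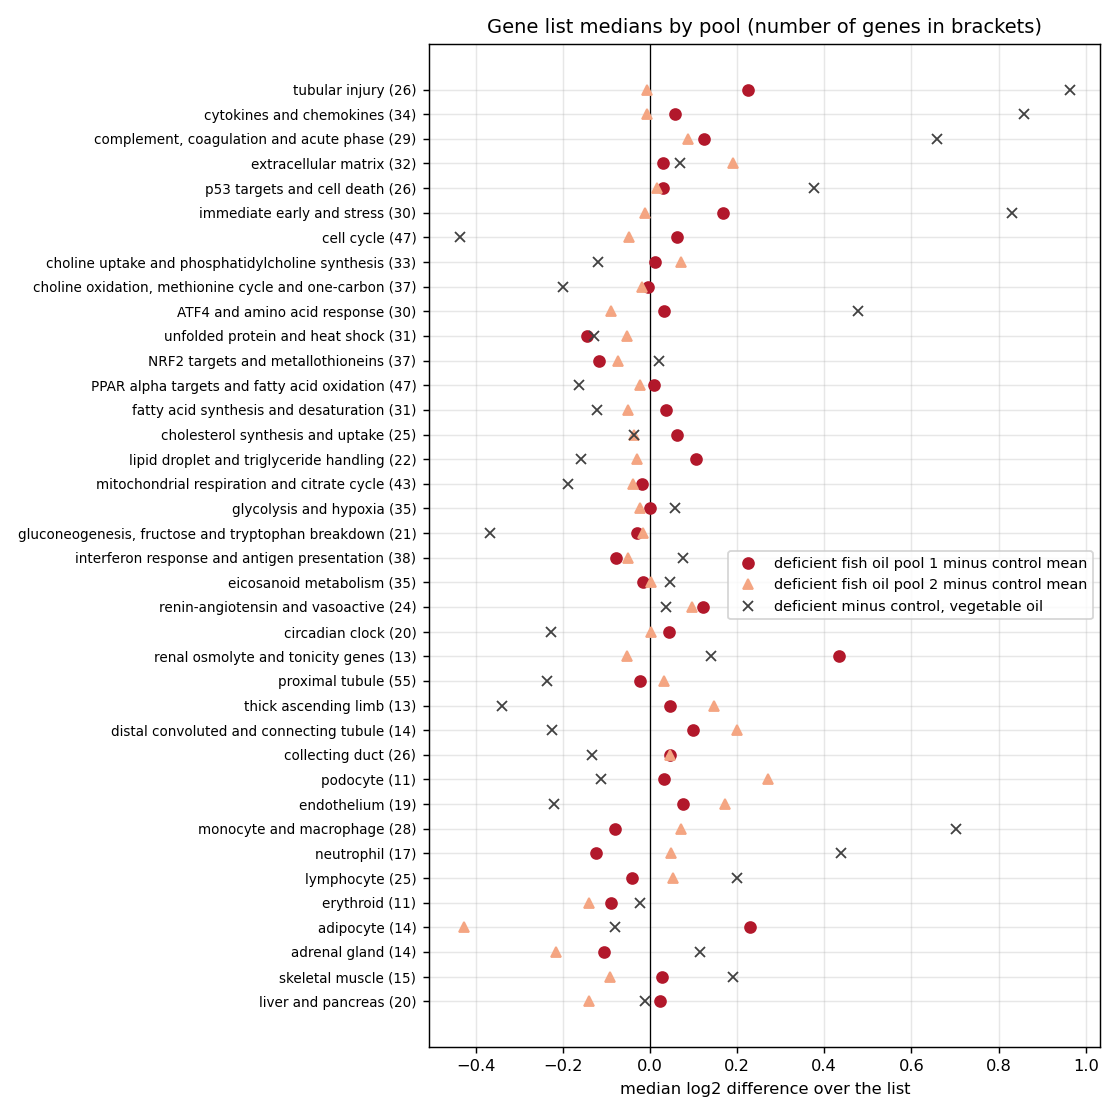
Median log2 difference over each of 38 gene lists, for deficient fish oil pool 1 (circles) and pool 2 (triangles), each minus the control fish oil mean, and for deficient minus control vegetable oil kidneys (crosses). The number of genes measured stands in brackets. The tubular injury list is at 0.22 in pool 1, -0.01 in pool 2 and 0.96 under vegetable oil.

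Inflammatory and immune gene lists had medians near 0. Of 34 cytokine and chemokine genes the median was 0.02, beside 0.86 for the same diet difference under vegetable oil. Ccl2, the chemokine that draws monocytes, was at 11.36 and 9.50 in the deficient fish oil pools, against 11.27 and 9.36 in the controls. It thus followed the pool number and not the diet. Il6 was at 4.90 and 4.61 in the deficient pools, against 4.96 and 4.50 in the controls. Over 28 monocyte and macrophage genes the median was -0.01, with 12 above 0. The pan-macrophage marker Cd68 was at 8.38 and 8.53 in the deficient pools, against 8.39 and 8.44 in the controls. The neutrophil list of 17 had a median of -0.02 and the lymphocyte list of 25 one of 0.02. Cell cycle genes, 47 of them, had a median of 0.0024 with 24 above 0, and under vegetable oil the same list was at -0.44 with 0 called, beside 1.76% of all genes.

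Stress transcription factors showed the pool 1 pattern again in part. The list of immediate early and stress genes had a median of 0.10, with 0.17 in pool 1 and -0.01 in pool 2, and pool 1 was above pool 2 in 27 of 30. Atf3, a factor induced within hours of ischaemia, was at 7.89 and 7.24 in the deficient fish oil pools, against 7.29 and 7.39 in the controls. Under vegetable oil it rose by 3.96. The fibrinogen chain Fgg was at 6.36 and 5.84 in the deficient pools, against 6.22 and 5.50 in the controls, so both groups spread widely. Kng1, a kininogen, was at 6.64 and 6.13 in the deficient pools, against 6.14 and 5.98 in the controls.

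Whether choline deficiency acted differently under the 2 oils was tested with the interaction. This is the choline effect under fish oil minus that under vegetable oil in kidneys not labelled necrotic. The labels split the deficient vegetable oil pools by the word necrotic and make no such split under fish oil. The 2 sides may thus differ in sorting as well as in oil. The interaction called 30 probe sets (0.103%), of which 28 (0.0958%) were lower and 2 (0.00685%) higher, and 26 of the 30 had a gene name. All 28 lower ones had risen with choline deficiency under vegetable oil, by 0.89 to 4.43. Under fish oil their differences lay between -1.02 and 0.57, with 17 of 28 above 0. The test picks probe sets by the gap between these 2 effects, and none passed under fish oil. A rise under vegetable oil therefore goes with the selection. The 95% interval of the fish oil difference lay inside 2-fold for 29 of the 30, beside 27566 of all 29214 probe sets. Some of these genes stood at different levels in the controls of the 2 oils. The control fish oil pools lay above both control vegetable oil pools in 12 of the 28 and below both in 7, and in 3 their mean was at least 2-fold higher. Angptl4, which inhibits lipoprotein lipase, was at 10.40 and 10.22 in the deficient fish oil pools, against 10.11 and 9.87 in the control fish oil pools, and under vegetable oil at 10.74 and 10.35 in the deficient pools, against 7.79 and 8.31 in the controls. Igfbp1, which holds IGFs in the circulation, was at 11.78 and 11.29 in the deficient fish oil pools, against 11.40 and 11.47 in the control fish oil pools, and under vegetable oil at 13.29 and 12.88 in the deficient pools, against 9.95 and 10.10 in the controls. For Angptl4 the fish oil kidneys of both diets were therefore near the deficient vegetable oil level. In the other 27 both deficient fish oil pools were below both deficient vegetable oil pools, though not always by much. An unnamed probe set was at 13.75 and 13.80 in the deficient fish oil pools, against 13.99 and 13.82 in the controls. Under vegetable oil it was at 13.95 and 13.90, against 12.58 and 12.20. For another unnamed probe set the control fish oil pools, at 9.08 and 8.97, were near the deficient vegetable oil pools, at 9.08 and 9.28. The 24 named genes on the lower side are of mixed function. Coagulation and kinin proteins were Fga, Kng1, Kng2 and F3. The transcription factors and signalling brakes were Atf3, Myc, Klf6, Tgif1, Socs3 and Nfkbiz. The receptors, ligands and binding proteins were Olr1, Osmr, Tnfrsf12a, Inhba, Igfbp1 and Angptl4. Mthfd2, Chac1, which cleaves glutathione, and Upp1, uridine phosphorylase, are enzymes, and Npy, a neuropeptide, Prss22, a serine protease, Ubd, a ubiquitin-like protein, Lcp1, an actin bundler of leukocytes, and LOC681325 make up the rest. For Mthfd2 the call is on its dimmer probe set, at 7.88 and 7.76 in the deficient fish oil pools, against 8.44 and 8.31 in the control fish oil pools (interaction -2.07, adjusted p = 0.0451), while the brighter one, whose levels are given above with the one-carbon genes, did not pass (-1.84, adjusted p = 0.0651). The 2 genes higher in the interaction were Prima1 and the olfactory receptor Or13a19b.

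Fga, the fibrinogen alpha chain, shared the smallest adjusted p of this contrast among the named genes with Olr1, Kng2 and Prss22. It was at 9.69 and 9.29 in the deficient fish oil pools, against 8.84 and 9.0 in the control fish oil pools, a difference of 0.57 ± 0.17 (unadjusted p = 0.0101). Under vegetable oil the deficient pools were at 12.63 and 12.57, against 9.0 and 9.16 in the controls. The interaction was -2.95 (adjusted p = 0.00826). Olr1, the scavenger receptor for oxidised lipoprotein, was at 6.50 and 6.17 in the deficient fish oil pools, against 6.17 and 6.06 in the controls, and its interaction was -3.82 (adjusted p = 0.00826). The suppressor of cytokine signalling Socs3 was at 7.89 and 7.63 in the deficient fish oil pools, against 7.46 and 7.57 in the controls. Its interaction of -2.51 had an adjusted p of 0.0123. For Havcr1 the interaction was -4.02 and did not pass (adjusted p = 0.184), and neither did Lcn2 (adjusted p = 0.293). Both have pools that spread widely in the deficient groups of both oils. Of the 26 injury genes only Tnfrsf12a passed this test, while 23 of the 26 passed on the lower side when the fish oil effect was set against the necrotic one, beside 0.172% and 5.32% of all genes. The count of 30 depended on single arrays: it was 0 without any 1 of the 4 control pools of either oil, 7 without deficient fish oil pool 2 and 90 without deficient vegetable oil pool 1.

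**Figure D4:**
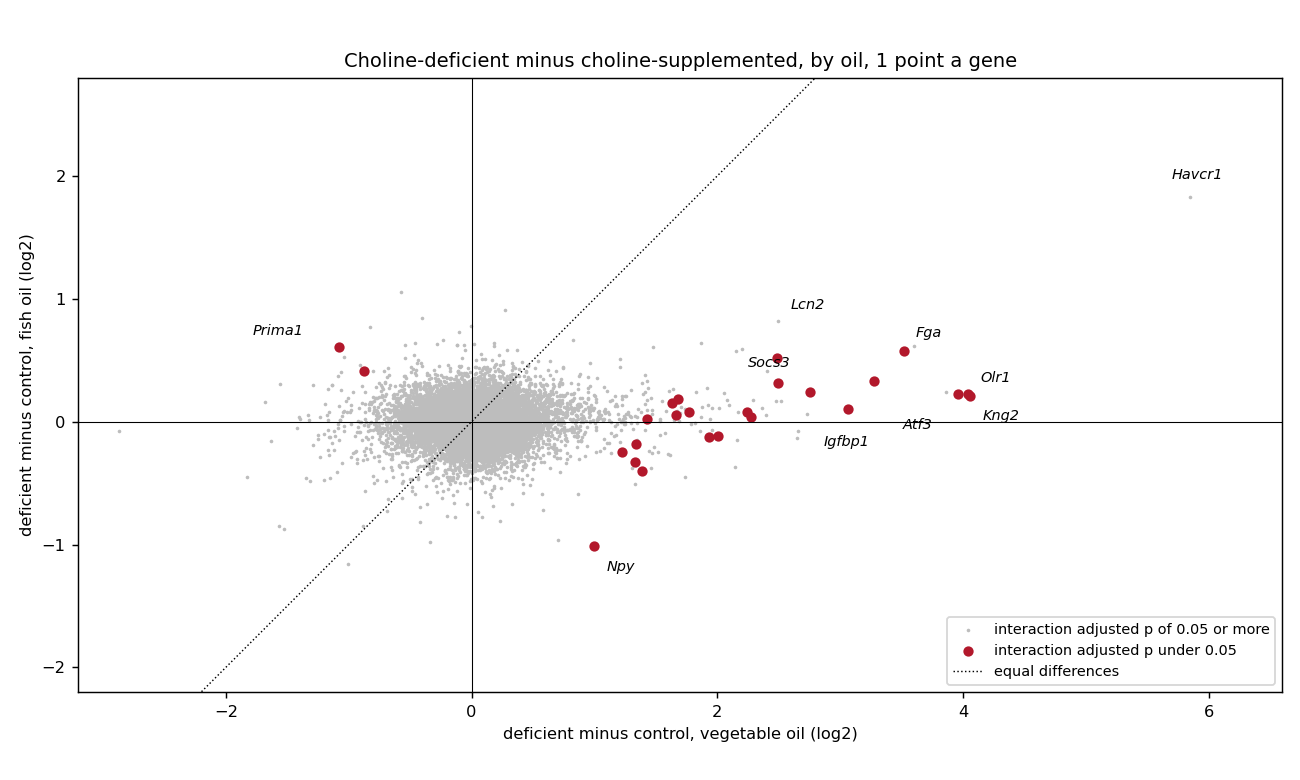
Choline-deficient minus choline-supplemented log2 difference under fish oil (vertical) and under vegetable oil in kidneys not labelled necrotic (horizontal), 1 point a gene over 14506 genes, on axes of equal scale. Red points passed the interaction test at an adjusted p under 0.05, and the dotted line marks equal differences. Havcr1 has the largest difference under fish oil, 1.83, and did not pass the interaction test.

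The 250 bases upstream of the gene's start are shown for Fga, Olr1 and Socs3, the interaction genes described above, and for Havcr1, the gene with the largest difference under fish oil. Promoter letters are from RefSeq (GRCr8), on the strand of the gene, and capitals mark a match to a motif searched on both strands. The motifs were the STAT palindrome TTCNNNGAA, the AP-1 element TGANTCA and the ATF4 response element TGATGNAA.
Fga promoter, chr2:170671919-170672168, plus strand: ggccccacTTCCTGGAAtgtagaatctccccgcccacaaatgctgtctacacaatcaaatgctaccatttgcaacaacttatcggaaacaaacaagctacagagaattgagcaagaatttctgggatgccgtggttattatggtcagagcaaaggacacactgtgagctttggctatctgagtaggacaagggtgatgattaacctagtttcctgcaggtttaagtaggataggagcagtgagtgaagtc
Olr1 promoter, chr4:164634548-164634797, minus strand: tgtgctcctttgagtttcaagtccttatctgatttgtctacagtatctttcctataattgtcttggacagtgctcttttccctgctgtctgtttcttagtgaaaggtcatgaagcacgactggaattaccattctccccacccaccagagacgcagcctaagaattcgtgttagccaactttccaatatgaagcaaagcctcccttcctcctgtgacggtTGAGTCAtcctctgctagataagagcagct
Socs3 promoter, chr10:103694769-103695018, minus strand: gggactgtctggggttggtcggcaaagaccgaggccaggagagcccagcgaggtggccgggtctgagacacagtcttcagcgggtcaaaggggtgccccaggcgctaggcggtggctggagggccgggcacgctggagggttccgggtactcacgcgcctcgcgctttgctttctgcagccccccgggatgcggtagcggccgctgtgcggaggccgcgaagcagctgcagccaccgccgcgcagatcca
Havcr1 promoter, chr10:31629528-31629777, plus strand: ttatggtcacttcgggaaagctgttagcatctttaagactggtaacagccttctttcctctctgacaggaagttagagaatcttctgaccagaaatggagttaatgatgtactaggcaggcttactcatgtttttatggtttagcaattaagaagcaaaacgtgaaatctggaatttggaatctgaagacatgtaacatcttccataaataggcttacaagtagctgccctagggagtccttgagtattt

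The Fga window holds a STAT match that starts 242 bases before the gene's start and the Olr1 window an AP-1 match that starts 30 bases before it. None of the 3 motifs is in the Socs3 or the Havcr1 window. Of the 24 named genes lower in the interaction, 18 had a promoter in the table. The STAT motif was in 2 of the 18 (11.1%), those of Fga and Tnfrsf12a, beside 7.52% of all 27457 promoters. The AP-1 motif was also in 2 (11.1%), those of Olr1 and Osmr, beside 6.36%, and the ATF4 element in 1 (5.56%), that of Chac1, beside 3.27%. These matches describe letters in a short window and show no binding.

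The genes with the smallest unadjusted p under fish oil are given as values, since none of them passed. On the higher side Stc1 came first: stanniocalcin is a secreted hormone of tubules that acts on calcium and phosphate handling. It was at 10.50 and 10.15 in the deficient fish oil pools, against 9.57 and 9.39 in the control fish oil pools (0.84 ± 0.18, unadjusted p = 0.00134). Smad6 was at 9.02 and 8.99 in the deficient pools, against 8.59 and 8.57 in the controls. Smad7 was at 8.47 and 8.35 in the deficient pools, against 7.55 and 7.98 in the controls. Both are inhibitory SMADs that restrain BMP and TGF-beta signalling. Ptgis, prostacyclin synthase, was at 7.25 and 7.43 in the deficient pools, against 6.94 and 6.85 in the controls, and Adamts1, a secreted metalloprotease, was at 9.39 and 9.06, against 8.42 and 8.76. Prima1, which anchors acetylcholinesterase, was at 8.82 and 8.61 in the deficient pools, against 7.98 and 8.23 in the controls, and was 1 of the 2 probe sets higher in the interaction (1.69, adjusted p = 0.0431). In all of these the groups did not overlap, as was so for 14.7% of all probe sets on the higher side and 17.0% on the lower side.

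On the lower side the smallest p of all probe sets was that of Meox2, a homeobox factor of vessels, at 5.15 and 5.01 in the deficient fish oil pools, against 5.97 and 5.80 in the controls (-0.81 ± 0.12, unadjusted p = 0.000116 by limma). These values are dim: the deficient ones lie below the lower quartile of their arrays, 5.75 and 5.73. The control ones lie just above theirs, 5.78 and 5.77. Npy, a vasoconstrictor neuropeptide of sympathetic nerves, was at 7.87 and 7.76 in the deficient pools, against 8.68 and 8.99 in the controls (-1.02 ± 0.16). It was the only lower gene of the interaction whose fish oil difference exceeded 2-fold, and under vegetable oil it was 1.00 higher in the deficient kidneys. Pla2g2a, a secreted phospholipase that releases fatty acids from phospholipids, was at 7.58 and 7.53 in the deficient pools, against 8.48 and 8.55 in the controls (-0.96 ± 0.18, unadjusted p = 0.000463). Its pools lie close together within each group, and its interaction with oil had an adjusted p of 0.0654. Ahsp, the chaperone of free alpha globin in red cell precursors, was at 6.47 and 7.04 in the deficient pools, against 7.87 and 7.97 in the controls (-1.16 ± 0.26). Only 2 of 11 erythroid genes were above 0, beside 7657 of all 14506 genes, with a median of -0.08. Klf1, the master factor of red cell development, was at 7.22 and 7.44 in the deficient pools, against 7.60 and 7.58 in the controls. Of the 30 named genes of smallest p, 10 are olfactory receptors, 4 higher and 6 lower, with levels between 2.58 and 4.75, near the floor of these arrays. That is 33.3% of the 30, beside 7.61% (1104) of all 14506 genes, and members of this family have similar sequences.

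The 2 deficient pools differed 2-fold or more in 271 probe sets, 82 higher and 189 lower in pool 1, and the 2 control fish oil pools in 473. The 2 largest differences on the side of pool 1, ahead of Havcr1, belonged to Ucp1 and Car3, genes of fat tissue. Ucp1, the uncoupling protein of brown fat, was at 10.73 and 8.55 in deficient pools 1 and 2, against 11.13 and 9.69 in control pools 1 and 2. Car3, a carbonic anhydrase of fat and muscle, was at 9.68 and 7.52 in the deficient pools, against 9.35 and 8.76 in the controls. Adipoq (adiponectin) was at 9.31 and 8.32 in the deficient pools, against 9.19 and 8.77 in the controls. All 14 adipocyte genes were higher in deficient pool 1 than in pool 2 and 9 of 14 in control pool 1 than in pool 2, and the list's median was 0.23 for deficient pool 1 and -0.43 for pool 2. Pool 1, in which injury genes were higher, thus also held more fat tissue messages than pool 2, and the part of that in the injury values was not tested.

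The genes Slc14a2, Akr1b1 and Akr1b8 followed the pool number in both fish oil diets, though same-numbered pools are not said to be related. In pools 1 and 2 under vegetable oil Akr1b8 was at 10.80 and 10.85 in necrotic and 10.19 and 10.15 in deficient kidneys. In the control vegetable oil kidneys it was at 7.76 and 8.30. Of the 13 renal osmolyte genes 10 were higher in pool 1 than in pool 2 in either diet. Of the 26 collecting duct genes this held for 12 in the deficient pools and 14 in the controls, beside 7043 and 7821 of all 14506 genes. Slc14a2, the urea transporter of the inner medullary collecting duct, was at 11.22 and 10.20 in deficient pools 1 and 2, against 11.31 and 9.24 in control pools 1 and 2. Akr1b1, aldose reductase, which makes sorbitol as an osmolyte, was at 12.85 and 11.57 in the deficient pools, against 12.53 and 11.28 in the controls. Its relative Akr1b8 was at 10.56 and 8.61 in the deficient pools, against 10.87 and 9.03 in the controls. In these genes the difference between pools exceeded the difference between diets. The 13 renal osmolyte genes had a median of 0.43 in deficient pool 1 and -0.05 in pool 2, each against the control mean. Slc14a2 and Akr1b1 were picked out after their values were seen.

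**Figure D5:**
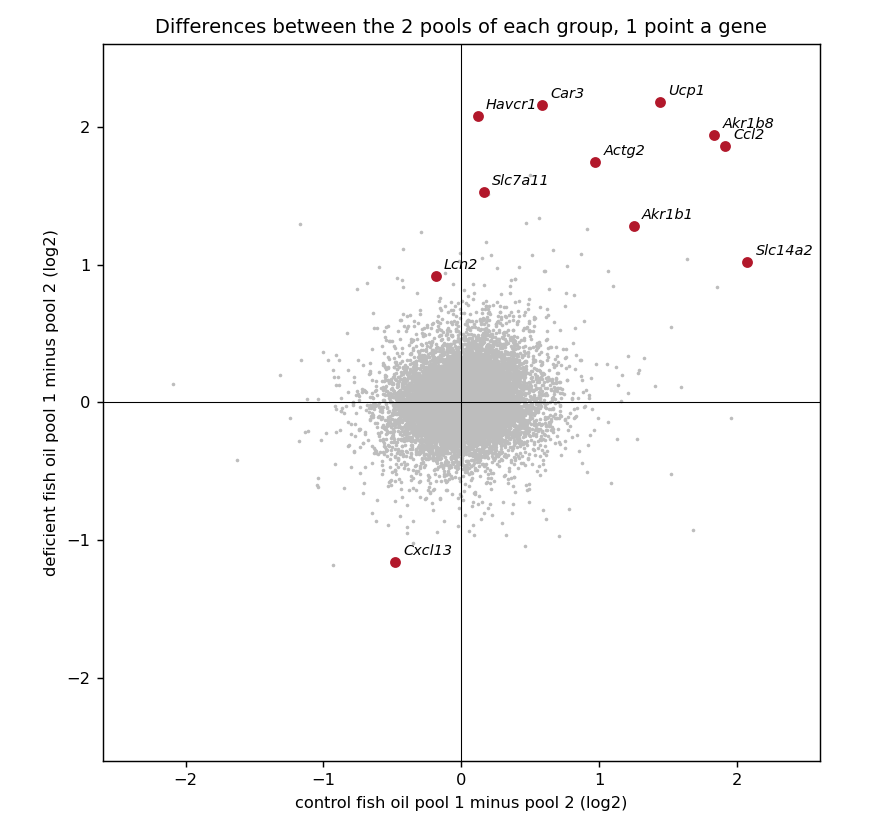
Deficient fish oil pool 1 minus pool 2 (vertical) against control fish oil pool 1 minus pool 2 (horizontal), in log2 units, 1 point a gene over 14506 genes. Named genes are drawn in red. Ucp1, Akr1b8, Ccl2 and Slc14a2 differ between pools in both groups, while Havcr1 and Slc7a11 differ between the deficient pools only, by 2.08 and 1.53 against 0.12 and 0.16.

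Control fish oil pool 1 stood apart in another group of genes. Interferon response and antigen presentation genes were higher in control pool 1 than in control pool 2 in 34 of 38, with a median of 0.44. The interferon-induced Ifit1 was at 7.45 and 5.60 in the control pools, and Mx1, a myxovirus resistance GTPase, at 7.64 and 6.24. The list's median for deficient against control was -0.08, and 3 of the 38 members had an unadjusted p under 0.05 on the lower side, beside 1.13% of all genes. RT1-Db1, a class II histocompatibility beta chain, was at 10.27 and 10.24 in the deficient pools, against 11.36 and 10.52 in the controls (-0.69 ± 0.23, unadjusted p = 0.0163). The higher of its control values is that of pool 1, and the difference was -0.26 without control pool 1 and -1.11 without control pool 2. Of 14 genes of the neighbouring adrenal gland 3 had a fitted difference above 0, beside 7657 of all 14506, with a median of -0.14. In 6 both deficient pools were below both controls, beside 14.3% of all genes. The list's median for control pool 1 minus pool 2 was 0.06, beside 0.02 over all genes. In 11 of the 14 control pool 1 was above control pool 2, beside 7821 of all 14506 genes. Its member Cyp21a1, the steroid hydroxylase of the adrenal cortex, was at 5.66 and 5.77 in the deficient pools, against 6.75 and 5.92 in the controls. Liver and pancreas genes had a median of -0.05 and skeletal muscle genes one of -0.03. Alb, the albumin gene, varied widely within both diets, at 8.78 and 9.71 in the deficient pools, against 10.17 and 8.49 in the controls.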

How the data were processed

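The 10 kidney arrays each held 1 pool of 3 rats. Each deposited value is the log2 intensity of a probe set, summarised by the authors with RMA, per the submitters' processing notes; which software, version, probe sets and genome build were used is not given in the sources used here. No step was added to them. They span 1.62 to 14.72, array medians lie between 7.28 and 7.43, and having few arrays limits the precision.

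The platform annotation lists 15633 of the 29214 probe sets: 15310 with 1 gene symbol and 323 with several, which were not named. The other 13581 stayed unnamed. Entrez numbers matched 15279 to the current RefSeq table (GRCr8), which changed 0 symbols. This named 14506 genes, and the 527 with several probe sets were represented in the lists by the one of highest mean. Close paralogues, such as the Klk1, Ugt2b and olfactory receptor families, can share probes, which was not tested.

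A joint fit of the 5 groups was made in limma 3.58.1 (lmFit, eBayes; R 4.3.3), tested on simulated data first, with Benjamini-Hochberg adjustment over all probe sets. P-values measure the spread between pools. Other steps used matplotlib 3.10.9, pandas 2.3.3, numpy 2.4.6 and Python 3.11.15. The rule for named genes took called genes, filled to 15 in each direction by smallest p, all tubular injury genes, up to 4 of each other list by smallest p, a fixed set of genes from the choline, injury and segment literature, the 10 largest pool differences in each direction and 10 per interaction. Members named beyond it (such as Cd68, Il6, S100a8, S100a9, Slc44a1, Bhmt, Mat2a, Shmt1, Adipoq, Ifit1, Mx1, Cacng5 and the remaining interaction genes) were chosen after their values were seen. The comparison, the 38 gene lists and the tests were chosen with earlier results of these data known. Alternatives were normalization, filters on dim probe sets, a trend and robust prior, a replicate block and leaving out each array.

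Same-numbered pools are not said to be related. The deviations of same-numbered pools from their group means correlated at 0.118 within fish oil, and at -0.173 to 0.136 over the 10 pairs of groups.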

Additional observations from a re-analysis of the deposited data

Results flagged for a closer look

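For 10 genes the choline effect under fish oil minus that under vegetable oil, in kidneys not labelled necrotic, passed the interaction test with the smallest p, and all 10 were lower. The log2 differences between the 2 effects were -2.945 for Fga, -3.822 for Olr1, -3.847 for Kng2, -2.056 for Prss22, -3.737 for Atf3, -2.509 for Socs3, -2.964 for Igfbp1, -2.164 for Tnfrsf12a, -1.792 for Ubd and -1.692 for LOC681325. Kng2, a rat T-kininogen, had the highest value under vegetable oil of these, at 4.06, beside 0.21 under fish oil.

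The choline effect under fish oil minus the effect in necrotic kidneys passed with the smallest p for 10 genes, all higher, most of which mark differentiated tubules. The differences were 4.176 for Klk1b3, 4.623 for Acsm3, 3.51 for Slc34a1, 3.515 for Mep1a, 4.497 for Dnase1, 5.053 for Egf, 4.232 for Miox, 3.361 for Umod, 4.749 for Klk1 and 3.427 for Prima1. In Prima1 the fish oil difference itself was 0.61, while in the other 9 it lay between -0.18 and 0.12. Klk1 and Klk1b3 are close paralogues and may share probes.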

How the results depend on the processing

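Under fish oil 0 probe sets were called in every setting tried (other normalizations, filters, prior and arrays left out) except without deficient fish oil pool 1, where 2 unnamed probe sets were lower, so leaving out single arrays gave 0 to 2. A replicate block by pool number left it at 0 and gave 11 calls, 11 lower and 0 higher, for the oil interaction in kidneys not labelled necrotic, which had 30 without it (Prima1 then had an adjusted p of 0.0822), and 2336 for the necrotic one, which had 2548; the numbers share no stated source. The first interaction had 67 calls with a trend and robust prior, 61 and 87 with probe sets above the 25th or 50th percentile of the mean, and 0 to 90 with single arrays left out. The second had 955 to 1847 with single arrays left out.

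The raised injury set, at 0.085 in deficient pool 1 and 0.053 in pool 2, gave 0.0128 and -0.0343 against the control vegetable oil pools, where the control fish oil pools gave -0.103 and -0.083, 0.168 and 0.0246 with a 4-fold set, and 0.146 and 0.00233 with the set from deficient vegetable oil kidneys. Leaving out single control fish oil pools gave 0.0522 to 0.0946 in pool 1 and 0.0252 to 0.0652 in pool 2. The lowered set, at -0.041 in pool 1 and 0.004 in pool 2, gave -0.161 and -0.114 against the control vegetable oil pools, where control fish oil pools 1 and 2 gave -0.089 and -0.151, and -0.116 and 0.0996 with the set from deficient vegetable oil kidneys. The causes were not tested. Under fish oil no named difference passed a threshold, so a change of direction past it could not be read there. Of the named interaction differences, the smallest of which was -1.692, 0 changed direction over all settings. A kept direction is not a kept call, since the counts above fell in some settings. With 2 pools a side the median half-width of the 95% interval was 0.35 log2 units, and probe sets near the array floor cannot show a fall.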

Other observations

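Among 32 extracellular matrix genes 26 had a fitted difference above 0 in deficient against control fish oil kidneys, beside 7657 of all 14506 genes. Their median was 0.10, and 19 lay above both controls in pool 2 and 7 in pool 1, beside 32.3% and 31.8% of all genes. Mmp14, a membrane-bound collagenase, was at 9.52 and 9.65 in the deficient pools, against 9.09 and 9.41 in the controls, and the collagen gene Col5a1 at 7.86 and 7.82, against 7.64 and 7.65. Renin-angiotensin and vasoactive genes were above 0 in 18 of 24, with a median of 0.11. Npr1, the natriuretic peptide receptor, was at 7.77 and 7.76 in the deficient pools, against 7.49 and 7.45 in the controls (0.29 ± 0.12, unadjusted p = 0.0443 by limma). None of these genes passed.

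Among eicosanoid genes Cyp2j4, an epoxygenase of polyunsaturated fatty acids, was at 8.59 and 9.08 in the deficient pools, against 8.37 and 7.76 in the controls. Of 31 genes of the unfolded protein and heat shock list 9 were above 0, beside 7657 of all 14506, with a median of -0.10. Calr, a chaperone of the endoplasmic reticulum, was at 12.88 and 13.03 in the deficient pools, against 13.17 and 13.09 in the controls. The coagulation factor gene F5 was at 7.95 and 8.33 in the deficient pools, against 7.31 and 7.51 in the controls. Nfil3, a clock output repressor, was at 9.20 and 8.67 in the deficient pools, against 8.38 and 8.48 in the controls. All of these are values with no call behind them.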
